A study of Mus musculus with 6 samples.

Results

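The nuclear receptors are a family of transcription factors that bind DNA through a zinc finger domain and are switched, in many members, by a small lipophilic ligand such as a steroid, retinoic acid, thyroid hormone or a fatty acid. Orphan members have no established natural hormone. All 45 listed nuclear receptor genes were found among the 24421 genes of a read-count table, by matching its Entrez identifiers to gene symbols, and they were sorted into the 7 receptor subfamilies NR0 to NR6. RNA-seq had been carried out on germinal vesicle (GV) oocytes, fully grown oocytes before meiotic resumption, of 2 mouse genotypes with 3 libraries each. The genotype DKO was Ring1 -/-; Rnf2 f/f; Zp3-cre, and the genotype SKO was Ring1 -/-; Rnf2 f/f without the transgene. Both genotypes therefore lacked Ring1, and the comparison addresses the added loss of Rnf2, the other catalytic E3 ligase of Polycomb repressive complex 1 (PRC1), from Zp3-cre activity in growing oocytes. No genotype with intact Ring1 is analysed here, and since only DKO carried Zp3-cre, cre itself and loss of Rnf2 cannot be told apart. Each library held 15 oocytes pooled from 1 female about 3 months old, of mixed FVB, 129/Sv and C57BL/6J background, after granulosa cells were stripped with a fine glass capillary. The labels do not state that the 3 pools of a genotype came from different females, so p-values measure the spread between these libraries. They describe the libraries as a re-analysis of earlier samples. In such a pool, a change in every oocyte and a larger change in some of them cannot be told apart.

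In the ovary, steroid receptors are known mainly from granulosa and theca cells, NR5 receptors drive steroid synthesis genes, and NR6A1 (germ cell nuclear factor) is named for its expression in germ cells. Retinoic acid, LXR, PPAR, vitamin D and thyroid hormone receptors bind DNA as heterodimers with a retinoid X receptor (RXR). Many genes of developmental transcription factors are classical Polycomb targets, and COUP-TF genes such as Nr2f2 are among such lineage regulators.

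Library totals ranged from 15521975 to 26652745 counts, and 3 counts corresponded to 0.116 to 0.171 CPM, the count scaled to a common library size after TMM. As a check of the labels, the DKO libraries held 56.3, 30.7 and 22.9 CPM of Rnf2 and the SKO libraries 203, 180 and 187 CPM. The oocyte markers Gdf9, Bmp15 and Padi6 were the most abundant of 12 listed and stood at 5656, 3584 and 2698 CPM in SKO. Of the 12, all tested, 7 were lower in DKO, against 7.41% of all tested genes. The summed level of the 12 was 12587 to 17196 CPM in DKO against 22644 to 24231 CPM in SKO. Libraries of DKO resembled each other less (Pearson r of log2 CPM across genes 0.942 to 0.962) than those of SKO (0.973 to 0.977), and genes are not independent replicates.

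The family was present in both genotypes at a like total and with a changed composition. Summed over the 45 genes, DKO libraries held 1496, 1462 and 1772 CPM and SKO libraries 1625, 1573 and 1543 CPM, so the totals overlapped. Of the 45 genes, 34 passed the filter on low counts, 10 others had few counts, and Vdr was listed at 0 in all 6 libraries. With edgeR's quasi-likelihood test, adjusted by Benjamini-Hochberg across the 14845 genes tested, 8 members were higher in DKO (Nr4a2, Nr2f2, Nr0b1, Nr4a3, Rxra, Rara, Esr1 and Nr5a2) and 3 were lower (Nr2e1, Rora and Nr1d1). Among all tested genes 17.3% were higher and 7.41% lower.

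A gene that is close to silent in SKO enters the test only through its DKO counts, so the number of calls was also taken over the 28 members that met the count level of the filter in all 3 SKO libraries. Of these 28, 6 were higher (21.4%) and 3 were lower (10.7%), against 11.9% and 8.65% of the 12700 genes that met it. Their median log2 fold change, DKO over SKO, was 0.21, against -0.06 for those genes. The 6 remaining tested members were Rarg, Nr1h3, Nr2f6, Nr4a3, Nr5a1 and Nr0b1. Of these, 2 were higher, and the share was 49% over all genes that entered this way. With library totals in place of TMM the median of all tested genes shifted from 0.04 to 0.20, and rises made up 83% instead of 70% of all calls. Of the 34 tested members 10 were then higher and 2 lower, against 19.6% and 4.01% of all tested genes.

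**Figure D1:**
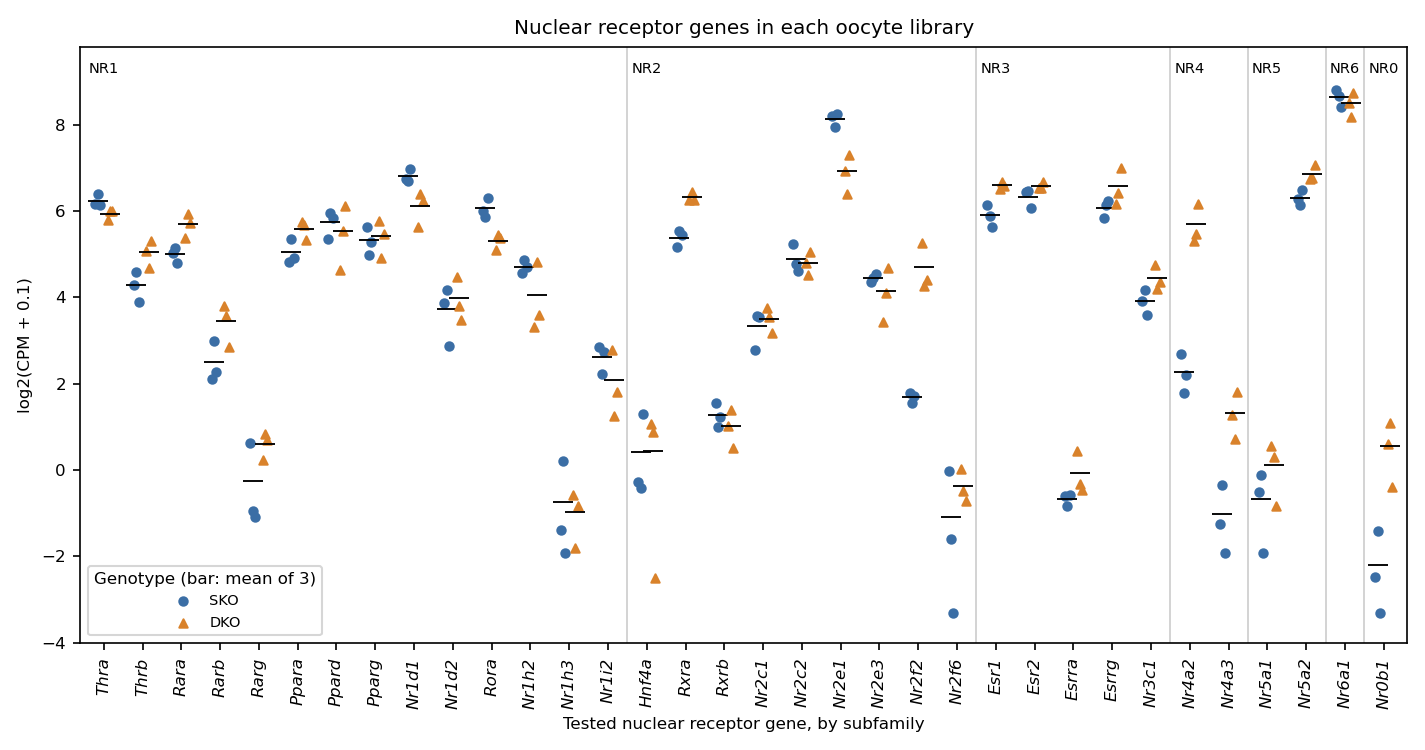
Level of each of the 34 tested nuclear receptor genes in each library, as log2(CPM + 0.1), with blue circles for SKO, orange triangles for DKO and black bars at the log2 of the group mean plus 0.1. Nr4a2 and Nr2f2 show the widest gaps among well-counted genes, with every DKO library above 19 CPM and every SKO library below 6.4 CPM, while Nr2e1 is lower in every DKO library.

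The most abundant receptors per unit of gene length were orphan receptors. On the RPKM scale (CPM per kilobase of the deposited gene length), Nr2e1 led the family in SKO at 82.7, followed by Nr6a1 at 62.5, the haem-binding REV-ERB gene Nr1d1 at 40.3, Esr2 at 23.98 and Thra at 19.6. In DKO the order was Nr6a1 at 56.7 RPKM, Nr2e1 at 35.7, Esr2 at 28.4, Nr5a2 at 25.6 and Nr1d1 at 25.1. Neighbours such as Nr5a2 and Nr1d1 in DKO lie within their spread. Nr4a2 moved from rank 23 of the 45 in SKO, at 1.33 RPKM, to rank 10 in DKO, at 14.5 RPKM.

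**Figure D2:**
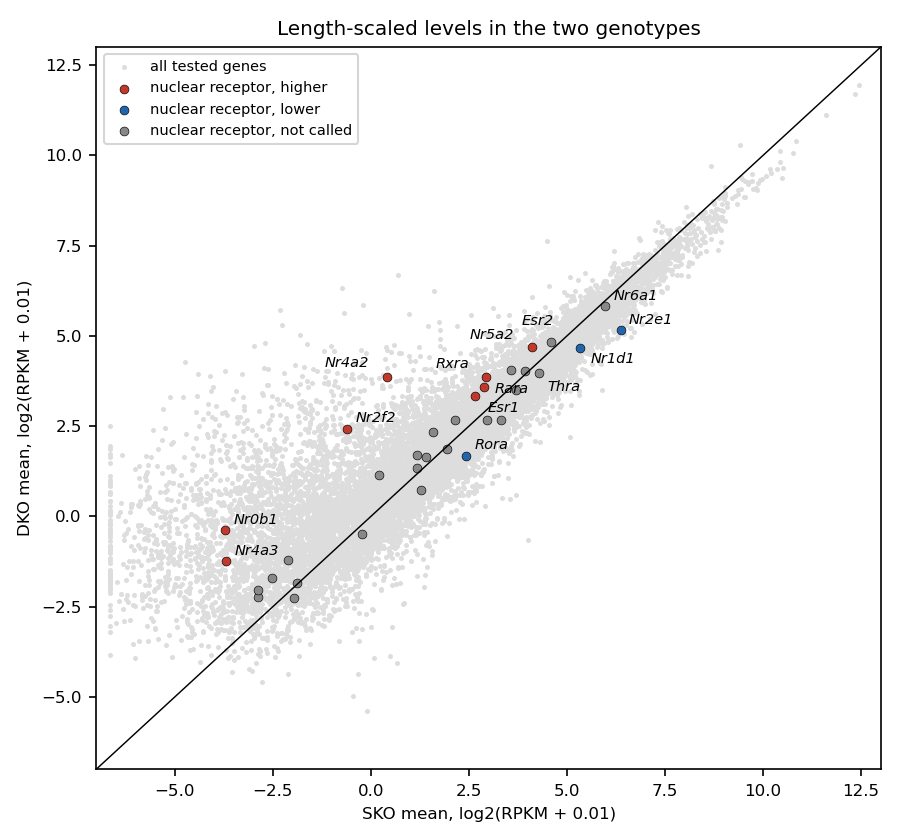
Mean length-scaled level of each tested gene in SKO (x axis) and DKO (y axis), as log2(RPKM + 0.01), with all tested genes in grey, nuclear receptor genes outlined (red called higher, blue called lower, grey not called) and the line of equal levels in black. Nr2e1 and Nr6a1 lie at the top of the family, and Nr4a2 and Nr2f2 lie farthest above the line among receptors over 0.5 RPKM in SKO.

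The NR4A orphan receptors are encoded by immediate-early genes in many cell types and act without a classical ligand pocket. Nr4a2 (Nurr1, known for its role in dopamine neurons; chromosome 2, 57106830 to 57124003, GRCm38) measured 39.2, 44.2 and 71.6 CPM in the DKO libraries and 6.32, 3.36 and 4.52 CPM in the SKO libraries. Every DKO library stood above every SKO library, and the log2 fold change was 3.45 (SE 0.33, edgeR adjusted p = 6.54e-05). Its paralog Nr4a3 followed at a lower level, with 2.33, 1.55 and 3.38 CPM in DKO and 0.322, 0.691 and 0.164 CPM in SKO (log2 fold change 2.62, SE 0.65, edgeR adjusted p = 0.0155). The groups did not overlap, but the SKO side rests on 27 counts in all, and the call was lost without SKO replicate 1 (edgeR adjusted p = 0.0585) or SKO replicate 3 (0.0556). The log2 fold change of Nr4a3 was 3.28 without SKO replicate 2. Nr4a1 had 9 DKO counts and 3 SKO counts and was not tested, with a ratio of 3.29 (exact 95% interval for counting error 0.821 to 18.9).

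Among the COUP-TF, RXR and related NR2 genes, Nr2f2 rose most. Nr2f2 (COUP-TFII, a regulator of vein, stroma and mesenchyme identity; chromosome 7, 70351946 to 70366746) had 38.2, 19.2 and 21.0 CPM in DKO and 3.34, 2.85 and 3.20 CPM in SKO. The SKO libraries were close together and all far below DKO (log2 fold change 3.06, SE 0.33, edgeR adjusted p = 0.000139). Nr2f1, its closest paralog, had 5, 6 and 7 counts in DKO and 0 in every SKO library, at least 6.58-fold higher against 3 counts over the SKO group. Nr2f6 (log2 fold change 0.83, SE 1.01) was not past the threshold.

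Of the 3 retinoid X receptor genes, the shared heterodimer partners, Rxra was the one at a substantial level. It measured 76.2, 87.4 and 76.1 CPM in the DKO libraries and 35.6, 46.5 and 43.1 CPM in SKO. The DKO values were all above the SKO values, a log2 fold change of 0.94 (SE 0.18, edgeR adjusted p = 0.00418). Rxrb stood at 1.93 ± 0.608 CPM in DKO and at 2.33 ± 0.489 CPM in SKO libraries (mean ± SD, n = 3 each, as for later ± values), with a log2 fold change of -0.28 that was not past the threshold. Rxrg had 11, 6 and 17 counts in DKO and 0 in every SKO library, at least 12.4-fold higher.

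Nr2e1 showed the largest fall in the family. Nr2e1 (tailless, an orphan repressor known from neural stem cells; chromosome 10, 42561963 to 42583590) measured 123, 84.0 and 157 CPM in the DKO libraries and 292, 247 and 304 CPM in SKO. Even the highest DKO library lay well below the lowest SKO library (log2 fold change -1.21, SE 0.23, edgeR adjusted p = 0.0035). The photoreceptor factor gene Nr2e3 had 10.7, 17.1 and 25.4 CPM in DKO and 20.3, 21.7 and 23.2 CPM in SKO, a log2 fold change of -0.29 (SE 0.30) with overlapping groups.

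The remaining NR2 genes did not pass the threshold, and their groups overlapped. The testicular receptor gene Nr2c1 had 13.3, 11.5 and 8.96 CPM in DKO and 6.76, 11.7 and 11.6 CPM in SKO (log2 fold change 0.17, SE 0.31). Its paralog Nr2c2 had 27.8, 22.7 and 32.9 CPM in DKO and 37.5, 27.1 and 24.4 CPM in SKO (-0.09, SE 0.24, or 0.052 with library totals), and it overlaps Mrps25, which fell. Hnf4a, a liver and gut regulator, was at 1.27 ± 1.04 CPM in DKO and 1.24 ± 0.958 CPM in SKO (0.02, SE 0.92), and its paralog Hnf4g had 12 and 6 counts and was not tested.

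The promoters of the 4 called members with the smallest adjusted p, Nr4a2, Nr2f2, Nr2e1 and Rxra, are shown. CpG-rich promoters are the usual sites of Polycomb complexes, and the pair with the largest well-counted rises differ in this feature at their listed starts. The 250 bases before the RefSeq start are given 5′ to 3′ on the gene's strand (GRCm38.p6), with each CpG in capitals and, for Rxra, the more CpG-rich of 2 listed starts. The stretches are chr2:57124004-57124253, minus strand, chr7:70366747-70366996, minus strand, chr10:42583591-42583840, minus strand, and chr2:27676951-27677200, plus strand.
Nr4a2: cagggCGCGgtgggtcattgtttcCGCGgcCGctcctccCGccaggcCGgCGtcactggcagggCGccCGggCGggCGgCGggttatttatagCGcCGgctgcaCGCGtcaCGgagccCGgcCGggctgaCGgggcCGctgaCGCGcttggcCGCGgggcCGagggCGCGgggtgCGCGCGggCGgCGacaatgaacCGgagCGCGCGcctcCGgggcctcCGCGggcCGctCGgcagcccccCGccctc
Nr2f2: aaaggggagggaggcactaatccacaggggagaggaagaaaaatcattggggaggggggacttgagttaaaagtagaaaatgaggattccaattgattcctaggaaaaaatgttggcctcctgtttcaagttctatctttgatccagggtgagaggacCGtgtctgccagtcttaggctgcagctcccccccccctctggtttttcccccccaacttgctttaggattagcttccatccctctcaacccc
Nr2e1: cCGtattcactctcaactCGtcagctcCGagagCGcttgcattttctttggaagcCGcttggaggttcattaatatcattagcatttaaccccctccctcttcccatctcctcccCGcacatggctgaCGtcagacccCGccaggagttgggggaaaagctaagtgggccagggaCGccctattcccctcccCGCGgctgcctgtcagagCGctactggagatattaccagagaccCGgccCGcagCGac
Rxra: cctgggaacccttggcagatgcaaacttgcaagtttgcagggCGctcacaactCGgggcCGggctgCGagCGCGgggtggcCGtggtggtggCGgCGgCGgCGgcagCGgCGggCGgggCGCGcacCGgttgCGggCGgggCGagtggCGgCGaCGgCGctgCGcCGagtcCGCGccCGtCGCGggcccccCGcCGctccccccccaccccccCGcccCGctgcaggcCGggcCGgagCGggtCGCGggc
The stretch before Nr4a2 holds 44 CpG and that before Rxra 40, whereas that before Nr2e1 holds 15 and that before the single listed start of Nr2f2 holds 1. Both a CpG-rich and a CpG-poor stretch therefore preceded listed starts of genes that rose, and starts that are not listed were not examined. Over windows of 300 bases (250 before to 50 after the start), 41 of the 45 genes had a sequence, and the median over genes of the highest observed-to-expected CpG ratio was 0.58 in the 8 members that rose, 0.77 in the 3 that fell and 0.775 in the 20 tested without a call. Over all genes the median ratio was 0.706 for those that rose and 0.75 for those that fell. No binding or histone mark data are analysed here.

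The NR1 subfamily holds many of the ligand-activated receptors. Of its 18 genes, 14 were tested, 1 rose and 2 fell, where 24.7% of all tested genes were called in either direction. Among the retinoic acid receptors, Rara had 41.4, 61.4 and 53.1 CPM in DKO and 32.5, 35.3 and 27.7 CPM in SKO. The groups did not overlap, and the log2 fold change was 0.71 (SE 0.21, edgeR adjusted p = 0.0344). Rarb had 13.8, 11.7 and 7.10 CPM in DKO and 4.22, 7.83 and 4.72 CPM in SKO, so the lowest DKO library lay within the SKO range. Its log2 fold change of 0.96 (SE 0.37) was not past the threshold (edgeR adjusted p = 0.0838), while DESeq2, and edgeR without DKO replicate 3, called it. Rarg stood at 1.43 ± 0.313 CPM in DKO and 0.744 ± 0.61 CPM in SKO, and its log2 fold change of 0.93 (SE 0.66) was not past the threshold either. The call of Rara was lost without DKO replicate 2 (edgeR adjusted p = 0.0877) and without SKO replicate 1, 2 or 3 (0.112, 0.0831 and 0.151).

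Rarb is itself a textbook target of retinoic acid through a direct repeat in its promoter. A search of all 32851 promoter windows, on both strands, for GTTCAC repeated in the same orientation with 5 bases between found it in 2 windows (0.00609%), one of them that of Rarb. It is shown with 5 bases on either side and the repeats in capitals (chr14:16575507-16575533, minus strand, GRCm38.p6), its last repeat base lying 36 bases before the start.
Rarb: gaaggGTTCACcgaaaGTTCACtcgca
The common half-site AGGTCA occurred in windows of 11 members, among them Rara, Rxra, Nr5a2 and Nr0b1, and in 16.3% of all windows against 19.7% of the members' windows. Its direct repeats with 1 to 5 bases between occurred in 0 of the 61 members' windows. These matches describe the letters only.

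The clock-linked REV-ERB and ROR genes include both called falls of the NR1 subfamily. Nr1d1 (REV-ERBα, a repressor of clock genes) measured 49.4, 83.9 and 75.3 CPM in the DKO libraries and 106, 103 and 125 CPM in SKO. All DKO libraries lay below all SKO libraries (log2 fold change -0.68, SE 0.22, edgeR adjusted p = 0.0431). Rora, an activator at the same DNA elements, had 34.0, 43.6 and 41.1 CPM in DKO and 63.6, 58.2 and 78.9 CPM in SKO. Here too the groups did not overlap (log2 fold change -0.75, SE 0.20, edgeR adjusted p = 0.0189). Nr1d2, the paralog of Nr1d1, had 22.1, 13.8 and 11.02 CPM in DKO and 14.4, 17.9 and 7.27 CPM in SKO, with overlapping groups and a log2 fold change of 0.24 (SE 0.37). Rorb had 57, 3 and 12 counts in DKO and 0 in SKO, at least 26.3-fold higher, or at least 7.53-fold without DKO replicate 1.

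The calls of Nr1d1 and Rora were close to the threshold. Nr1d1 lost it without DKO replicate 1 (edgeR adjusted p = 0.0651) and without SKO replicate 1, 2 or 3 (0.0941, 0.0864 and 0.155), with library totals (0.0859) and with the filter on SKO libraries alone (0.0749), and Rora without SKO replicate 1 or 3 (0.055 and 0.103). Nr1d1 shares 1075 bases with the thyroid hormone receptor gene Thra on chromosome 11, and without a stated strand setting reads there cannot be told apart. Nr1d1 was lower by 41.9 CPM and Thra by 14.7 CPM. Genes overlapping Rora changed by at most 1.60 CPM, against 27.3 CPM lower for Rora.

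Thyroid hormone receptor genes stood on either side of no change, without a call. Thra had 55.2, 63.4 and 64.0 CPM in DKO and 71.5, 84.2 and 70.9 CPM in SKO (log2 fold change -0.31, SE 0.17, edgeR adjusted p = 0.216). Thrb had 33.7, 25.5 and 39.3 CPM in DKO and 19.5, 23.9 and 14.8 CPM in SKO (0.76, SE 0.26, edgeR adjusted p = 0.0547). Neither gene overlapped between the groups. DESeq2, limma voom and edgeR without DKO replicate 2 called Thrb higher. So did edgeR with library totals, with a stricter filter (1 CPM in at least 3 libraries) and with the filter on SKO libraries alone.

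The fatty acid receptor genes, which govern lipid oxidation and storage, did not pass the threshold with all libraries. Ppara had 53.2, 50.7 and 40.0 CPM in DKO and 28.3, 40.5 and 30.2 CPM in SKO (log2 fold change 0.54, SE 0.22) and was called higher without DKO replicate 3. Ppard had 24.6, 46.5 and 69.0 CPM in DKO and 41.0, 61.5 and 57.1 CPM in SKO (-0.19, SE 0.33). Pparg, the adipocyte regulator, had 54.5, 30.2 and 44.0 CPM in DKO and 49.5, 31.7 and 38.9 CPM in SKO (0.10, SE 0.26). The groups overlapped in all 3 genes, and the DKO libraries of Ppard spread most.

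Of the oxysterol receptor (LXR) genes, Nr1h2 had 9.84, 28.2 and 11.9 CPM in DKO and 23.4, 29.0 and 25.9 CPM in SKO, a log2 fold change of -0.65 (SE 0.37, edgeR adjusted p = 0.228). DKO replicate 2 lay within the SKO range and the others below it, and without that library Nr1h2 was called lower (-1.26, edgeR adjusted p = 0.00962). Nr1h3, the other LXR gene, was at 0.407 ± 0.197 CPM in DKO and 0.502 ± 0.486 CPM in SKO (-0.29, SE 0.84).

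Receptors of bile acids, xenobiotics and vitamin D were scarce. The bile acid receptor gene Nr1h4 had 59 DKO counts and 5 SKO counts and was below the filter, with each DKO library (0.683, 1.83 and 0.31 CPM) above each SKO library (at most 0.0921 CPM). The xenobiotic receptor gene Nr1i2 measured 4.16 ± 2.33 CPM in the DKO libraries and 6.09 ± 1.31 CPM in SKO (log2 fold change -0.55, SE 0.44) and was not past the threshold, and Nr1i3 had 28 and 6 counts. Without the filter, edgeR called 4 of the untested members higher, namely Rorb, Rxrg, Nr1h4 and Nr2f1. At that setting 13.7% of the 20319 genes tested were higher. These 4 had at most 5 SKO counts each, so a fall could hardly have been called.

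**Figure D3:**
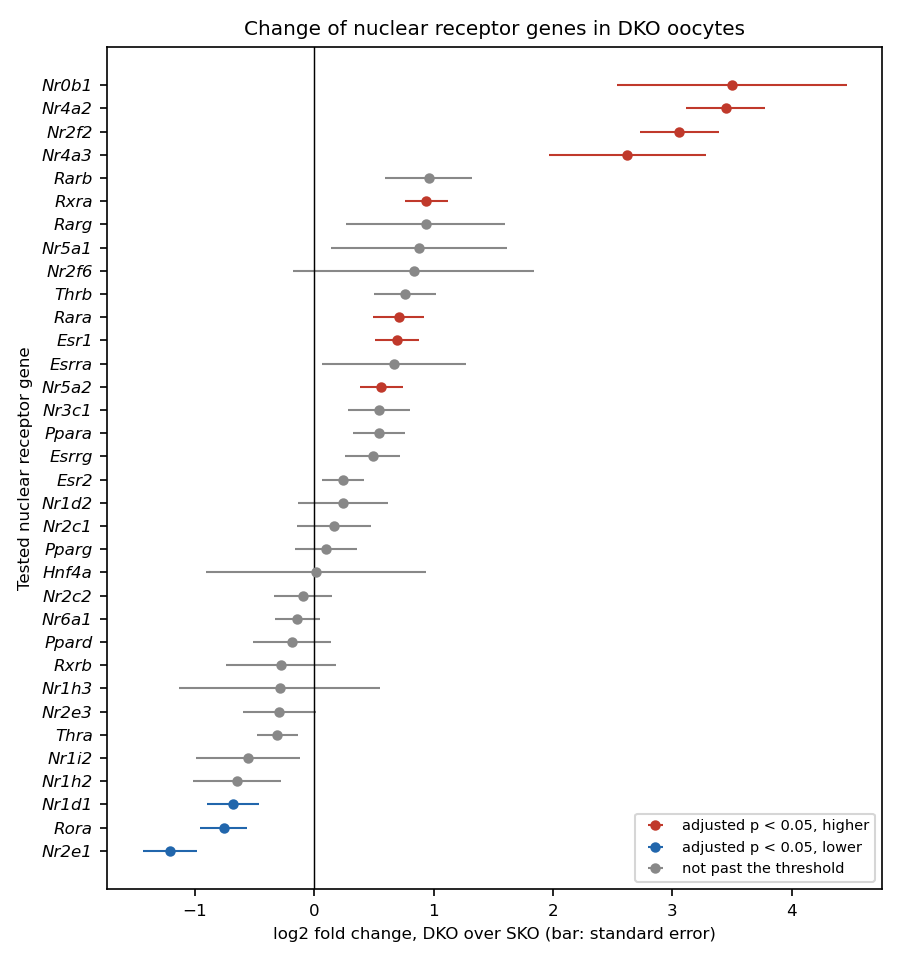
Log2 fold change, DKO over SKO, of the 34 tested nuclear receptor genes with its standard error, red for genes called higher, blue for genes called lower and grey for the others. The 4 points past 2 on the log2 scale are Nr0b1, Nr4a2, Nr2f2 and Nr4a3, and the other called genes lie between -1.21 and 0.94.

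Of the 7 steroid and related receptor genes of the NR3 subfamily, 5 were tested and 1 rose, where 17.3% of all tested genes were higher. Esr1 (oestrogen receptor α) had 91.1, 102 and 95.9 CPM in DKO and 70.7, 59.3 and 49.4 CPM in SKO. The groups did not overlap (log2 fold change 0.69, SE 0.18, edgeR adjusted p = 0.021). Esr2 (oestrogen receptor β) had 92.2, 92.0 and 102 CPM in DKO and 86.6, 88.5 and 66.7 CPM in SKO, and its log2 fold change of 0.25 (SE 0.18) was not past the threshold although the groups did not overlap. Esr1 lost its call without SKO replicate 2 or 3 (edgeR adjusted p = 0.0914 and 0.118).

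The other NR3 genes did not pass the threshold. The oestrogen-related receptor gene Esrrg, known for its role in oxidative metabolism, had 72.0, 85.6 and 127 CPM in DKO and 57.2, 69.9 and 75.4 CPM in SKO (log2 fold change 0.49, SE 0.23), with 1 DKO library within the SKO range. It was called higher with library totals. Its paralog Esrra was at 0.859 ± 0.343 and 0.533 ± 0.0631 CPM (0.67, SE 0.60). The glucocorticoid receptor gene Nr3c1 had 26.8, 18.1 and 20.4 CPM in DKO and 15.1, 17.8 and 11.9 CPM in SKO (0.54, SE 0.26, edgeR adjusted p = 0.154), and its groups did not overlap. The mineralocorticoid receptor gene Nr3c2 had 48 and 14 counts, and the progesterone receptor gene Pgr had 3 counts in DKO and 0 in SKO.

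Overlap of the groups can be read across the family in the same way. In 12 of the 34 tested members (35.3%) every DKO library lay above every SKO library, against 24.7% of all tested genes. In 4 members (11.8%) every DKO library lay below, against 19.7%. Of the 12, Nr4a3 and Nr0b1 entered the test only through their DKO counts. Of the 28 members that met the filter level in all SKO libraries, 10 lay above (35.7%) and 4 below (14.3%). The shares over all genes that met it were not computed.

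The NR5 and NR0 receptors form a functional pair in steroid-producing tissues, since NR0B1 (DAX1) and NR0B2 (SHP) lack the usual DNA-binding domain and repress other receptors, NR5 members among them. Nr5a2 (LRH-1) measured 107, 108 and 135 CPM in the DKO libraries and 77.8, 69.9 and 89.7 CPM in SKO. All DKO libraries stood above SKO, but by little (log2 fold change 0.56, SE 0.18, edgeR adjusted p = 0.0429). Nr5a1 (steroidogenic factor 1) was at 0.986 ± 0.466 and 0.532 ± 0.338 CPM (log2 fold change 0.88, SE 0.73) and not past the threshold. Nr0b1 had 25, 43 and 17 counts in DKO and 2, 6 and 0 in SKO, or 1.42, 2.02 and 0.66 CPM against 0.0805, 0.276 and 0 CPM. It was higher with a log2 fold change of 3.50 (SE 0.96, edgeR adjusted p = 0.0242), on 8 SKO counts. Nr0b2 had 18 and 24 counts and was not tested.

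These calls moved with single libraries. Nr5a2 lost its call without DKO replicate 3 (edgeR adjusted p = 0.0765), without SKO replicate 1, 2 or 3 (0.151, 0.197 and 0.0774), and with RLE size factors or no filter. Nr0b1 lost it without DKO replicate 1 or 2 (0.0677 and 0.0878) or SKO replicate 1 or 3 (0.0922 and 0.0684), and its log2 fold change was 4.88 without SKO replicate 2 and 2.91 without SKO replicate 3.

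Esr2, Nr5a1 and Nr5a2 are also granulosa markers. Of the 19 listed granulosa and cumulus markers that are no receptor of this family, 15 were tested, 6 rose and 1 fell. Over all tested genes, 17.3% were higher and 7.41% lower. The summed level of the 19 was 204 to 230 CPM in DKO and 56.7 to 74.5 CPM in SKO. Fshr rose from 0.506 to 30.7 CPM, Ptgs2 from 3.79 to 87.0 CPM, Cyp11a1 from 14.6 to 36.9 CPM and Wt1 from 0.476 to 5.29 CPM. The aromatase gene Cyp19a1, the most abundant of the 19 in SKO, fell from 30.0 to 17.0 CPM. Other defining markers were at or near 0 in both genotypes: Ptx3 at 0 counts, Tnfaip6 at 0 and 1, and Amhr2 at 7 and 8. Amh had fewer counts in DKO (50) than in SKO (114), without a call, while Foxl2 had 71 in DKO and 13 in SKO. Of 16 theca, stroma and endothelial markers, 11 were tested, 5 rose (Pdgfra, Col1a1, Dcn, Lum and Kdr) and 1, Pecam1, fell. Of these 11, 6 met the filter level in all SKO libraries, as did 11 of 18 tested granulosa and cumulus markers with the receptors included. Over all genes that entered the test only through their DKO counts, 49% were higher. The summed levels of the 16 were 121 to 145 CPM in DKO and 122 to 163 CPM in SKO. Pecam1, Tek and Kdr were the most abundant (109.5, 25.5 and 3.68 CPM in SKO). Cyp17a1, Insl3, Col1a2, Col3a1 and Cdh5 were each below 0.5 CPM in both genotypes. The 13 blood and immune markers in the table summed to at most 11.1 CPM in any library, and Cd68, Itgam and Alas2, the most abundant of them in SKO, were not past the threshold. The part of other cells in the changes of Nr5a2, Esr1 and Nr2f2 was not tested.

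Nr6a1, the sole NR6 member, was abundant in both genotypes. It measured 360, 291 and 428 CPM in the DKO libraries and 447, 403 and 341 CPM in SKO. The groups overlapped, and its log2 fold change of -0.14 (SE 0.19), or 0.0063 with library totals, was not past the threshold.

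**Figure D4:**
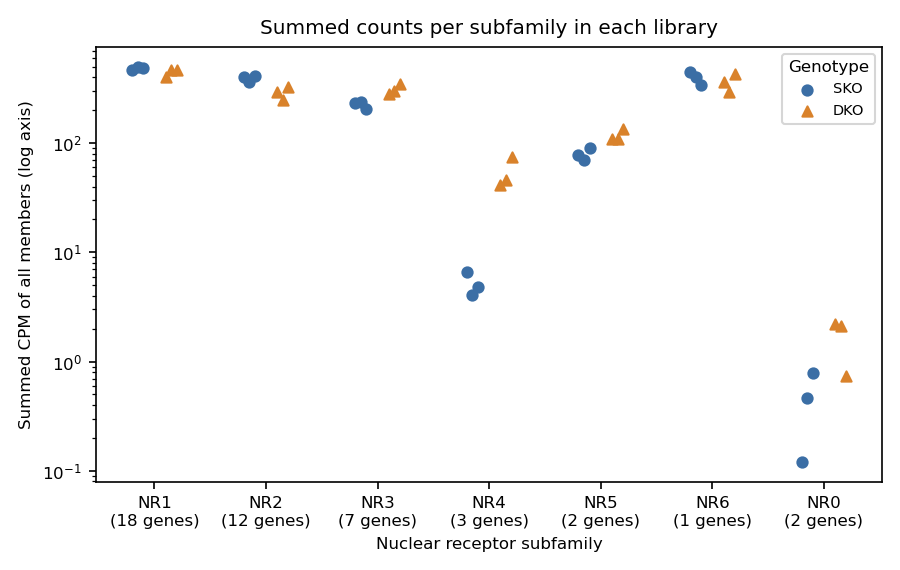
Summed CPM of all members of each nuclear receptor subfamily in each library, on a log axis, with blue circles for SKO and orange triangles for DKO. NR4 is at 41.8 to 75.0 CPM in DKO and 4.05 to 6.64 CPM in SKO, NR2 is lower in DKO, NR3 and NR5 are higher, and NR1, NR6 and NR0 overlap.

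Summed by subfamily, without a test, NR2 went down and NR3, NR4 and NR5 went up. NR2 held 248 to 324 CPM in DKO and 359 to 414 CPM in SKO, a drop carried by Nr2e1. NR3 held 284 to 347 CPM in DKO and 204 to 236 CPM in SKO, and NR5 held 109 to 135 and 70.7 to 89.9 CPM. NR1 (404 to 466 and 463 to 499 CPM) overlapped between the genotypes, as did NR0.

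Genes that work around the receptors were taken from 10 lists of cofactors, ligand metabolism, chaperones and known targets. They hold 165 distinct genes, of which 123 were tested, 31 rose (25.2%) and 3 fell (2.44%), against 17.3% and 7.41% of all tested genes. Among the 100 that met the filter level in all SKO libraries, 19 rose (19%) and 3 fell (3%), against 11.9% and 8.65% of all genes that met it, and the median log2 fold change was 0.26, against -0.06. Esrrb, a nuclear receptor gene outside the 45, had 77.0 ± 5.78 CPM in DKO and 67.9 ± 11.5 CPM in SKO and was not past the threshold. Nr1h5 was below the filter.

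Of 18 coactivators, all tested, 2 rose and 1 fell, against 17.3% higher and 7.41% lower over all tested genes. Ppargc1a (PGC-1α, which drives mitochondrial genes with PPAR and oestrogen-related receptors) went up from 0.314 ± 0.0896 to 9.78 ± 3.63 CPM, by 4.95 on the log2 scale, and the acetyltransferase gene Kat2b from 0.783 to 3.34 CPM. Nsd1, a histone methyltransferase that binds receptors, fell from 1037 ± 117 to 635 ± 110 CPM. Of 15 tested corepressors, 4 rose, Nr0b1 among them. Ppargc1a, Nr0b1 and the corepressor gene Zbtb16 entered the test only through their DKO counts, and 49% of all genes that entered this way were higher. Tbl1x, a subunit of the NCoR complex, rose from 1.12 ± 0.161 to 60.7 ± 8.94 CPM (5.75, SE 0.27, edgeR adjusted p = 1.35e-06), Bcl6 from 10.5 to 28.2 CPM and Zbtb16 from 0.884 to 9.96 CPM, and Ncor1 (165 CPM in SKO, log2 fold change -0.12) was not past the threshold. None of the 12 chaperone genes was called by edgeR, with 6 of them at an unadjusted p under 0.05, and DESeq2 called 4 higher and 1 lower.

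Of 22 listed genes of retinoid metabolism 11 were tested, 3 rose and 1 fell, against 17.3% higher and 7.41% lower over all tested genes. Aldh1a2, which makes retinoic acid, rose by 1.28 on the log2 scale (SE 0.21, edgeR adjusted p = 0.0015), from 99.9 ± 27.3 to 243 ± 12.2 CPM, and Aldh1a3 rose from 23 SKO counts to 399 DKO counts. The carrier gene Crabp1 rose from 3 SKO counts to 607 DKO counts, a ratio of 222 (75.6 to 1079). The retinol dehydrogenase gene Rdh11 fell from 119 to 72.4 CPM. Among the tested retinoic acid receptor targets, Meis1 and Hoxb1 rose (log2 fold change 2.44 and 4.36) and Rarb, Dhrs3 and Crabp2 did not pass the threshold.

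Of 20 tested genes of steroid, thyroid hormone and vitamin D metabolism, 3 rose and 1 fell. Over all tested genes, 17.3% were higher and 7.41% lower. Dio2, which activates thyroid hormone, rose from 1.38 to 13.3 CPM, Hsd11b1, which activates glucocorticoids, from 0.273 to 4.75 CPM, and Cyp11a1, the first enzyme of steroid synthesis, from 14.6 to 36.9 CPM; the fall was Cyp19a1. Of 13 tested steroid receptor targets, 6 rose, where 17.3% of all tested genes were higher. Of these 6, Scnn1a, Tsc22d3 and Zbtb16 entered the test only through their DKO counts, as did Abca1, Angptl4 and Cyp4a10 of the lipid targets, and 49% of all genes that entered this way were higher. The 4 with the smallest adjusted p were the cell cycle inhibitor gene Cdkn1c (3.09), Klf9 (4.09), the sodium channel gene Scnn1a (6.92) and the glucocorticoid-induced gene Tsc22d3 (6.32, log2 fold changes). Of 14 tested lipid and bile acid receptor targets, 7 rose. The smallest adjusted p was that of the LXR target and cholesterol exporter gene Abca1, from 0.743 ± 0.422 to 39.2 ± 5.29 CPM (log2 fold change 5.70), followed by Mylip, Cpt1a and Plin2 (2.15, 2.77 and 1.37). Of 15 clock partners, all tested, 4 rose. These were Hlf, from 1.19 to 54.7 CPM, Cry2, Ciart and Per2, while the REV-ERB target Arntl had a log2 fold change of -0.33 (SE 0.20) and was not past the threshold. Falls numbered 0 by edgeR in the corepressors and the retinoic acid, steroid, lipid and clock lists. At an unadjusted p under 0.05, 1 lipid target and 2 clock partners were lower and 0 genes of the other 3 lists, and DESeq2 called 1 clock partner lower and 0 in the others.

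Several list results rest on low SKO counts or on single libraries. Aldh1a3, Crabp1, Hoxb1 and Hsd11b1 also entered the test only through their DKO counts. With the filter on SKO libraries alone, rises among steroid receptor targets were 3, among lipid targets 4 and among retinoid metabolism genes 1. Rises among lipid targets were 4 without DKO replicate 2, SKO replicate 1 or SKO replicate 2. The log2 fold changes of Crabp1 and Aldh1a3 reached 10.74 and 5.57 without SKO replicate 3, that of Tsc22d3 was 10.78 without SKO replicate 2, and those of Scnn1a and Zbtb16 were 8.33 and 4.20 without SKO replicate 1. Hoxb1, on 7 SKO counts, went to 8.65 without SKO replicate 2 and lost its call without DKO replicate 1 or SKO replicate 1 or 3. Kat2b lost its call without DKO replicate 2 or SKO replicate 2 or 3, Ciart without DKO replicate 2 or SKO replicate 1 or 2, and Per2 without DKO replicate 3 or SKO replicate 2 or 3. Among the falls, Nsd1 lost its call without SKO replicate 2 or 3, Rdh11 without SKO replicate 1, 2 or 3, and Cyp19a1 without DKO replicate 1 or 2 or SKO replicate 1 or 3. Rises among clock partners were 2 without SKO replicate 2, and without DKO replicate 3 falls among coactivators were 4 and rises among retinoic acid receptor targets 5.

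**Figure D5:**
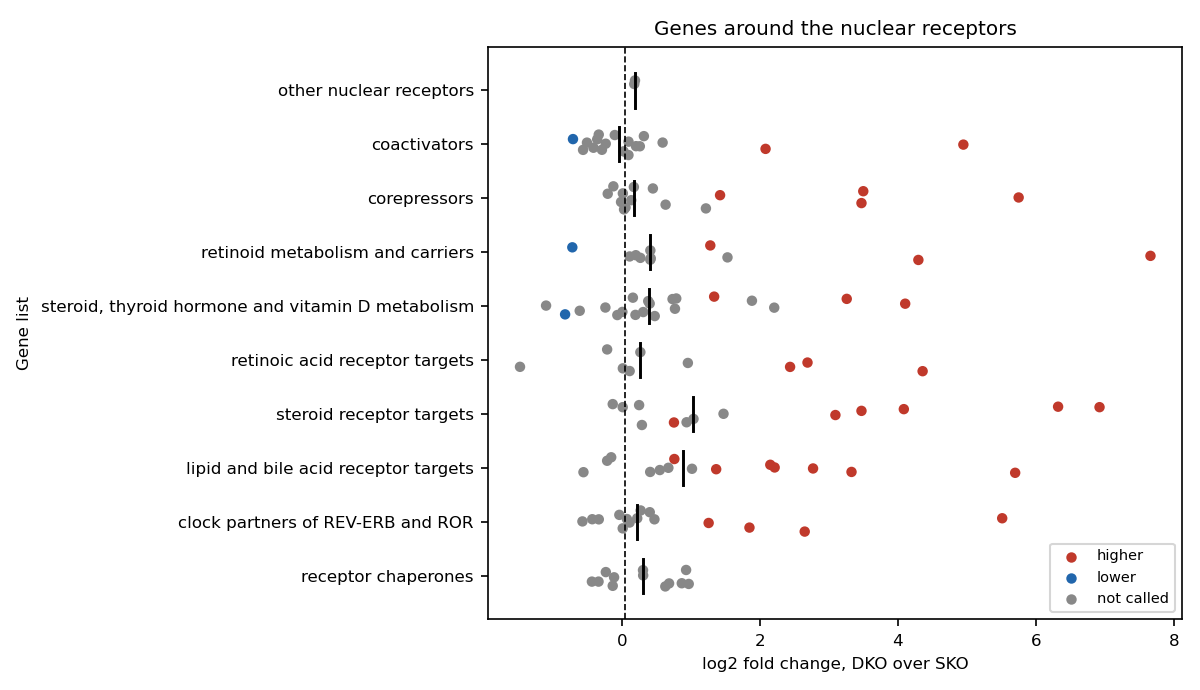
Log2 fold change, DKO over SKO, of the tested genes of 10 lists around the receptors, 1 point per gene, red for called higher, blue for called lower and grey for neither, with each list's median as a black bar and the median of all tested genes (0.04) as a dashed line. Red points beyond 5 are Tbl1x, Crabp1, Scnn1a, Tsc22d3, Abca1 and Hlf, and most points lie near 0.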

How the data were processed

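RNA-seq was measured in 3 DKO and 3 SKO oocyte libraries, each 15 oocytes pooled from 1 mouse and amplified with the Ovation kit, per the labels' protocols. Amplified reads do not count molecules, and intervals and floors cover counting error only. The authors deposited raw read counts per Entrez gene and a gene length, another (other) column in bases. Per the submitters' processing notes, STAR 2.5.0a and the build GRCm38 (mm10) were used. Not given in the sources used here: counter, annotation, strand setting, multiple alignments. Of 24421 identifiers, 24387 matched RefSeq (GRCm38.p6), which gave symbols, coordinates and promoters. Column names matched the sample titles.

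In R 4.3.3, edgeR 4.0.16 was run on all genes: filterByExpr (minimum count 10, minimum total 15), TMM, and the two-sided quasi-likelihood test between genotypes. Adjusted p under 0.05 was called. The standard error is the log2 fold change over the root of the F statistic. The floor is 3 counts over a group, and intervals are exact 95%. Alternatives used DESeq2 1.42.0 and limma 3.58.1. The code was tested on simulated data. The members and lists were chosen with earlier results of these data known. Every member is accounted for; called members and those reaching 10 CPM in a genotype were described first, with up to 4 called genes per list by adjusted p; the Rarb repeat was chosen after its values were seen. Some genes of the lists are not reported here.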

Additional observations from a re-analysis of the deposited data

How the results depend on the processing

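Over 15 alternative settings, Nr4a2, Nr2f2 and Nr2e1 kept their calls, and none of the 11 called members reversed where it was tested. Nr4a3 was tested in 14 of the settings and Nr0b1 in 13. The setting with a fold of at least 2 reuses the main fit, so no sign could change there. Requiring a fold of at least 2 removed the calls of Rxra, Rara, Esr1, Nr5a2, Nr1d1 and Rora. It left 4 members higher and 1 lower, against 15.3% and 2.87% of all tested genes. It also left 426 genes lower among all tested and 0 lower in the pathway lists. Library totals gave 596 genes lower and 1 lower in the pathway lists, DESeq2 gave 5 lower in the pathway lists, and the filter on SKO libraries alone gave 1686 genes higher, with fewer genes tested. Leaving out 1 library at a time gave 6 to 10 members higher and 1 to 4 lower, of 36 to 40 tested. Over all tested genes 12.6% to 17.7% were then higher and 2.81% to 9.83% lower. The falls numbered 434 to 1501 among all tested genes and 1 to 9 in the pathway lists. Members without a call changed sign as follows. Hnf4a was at -0.0080 with RLE, -0.80 with limma voom and -0.039 without a filter, and Nr1h3 at 0.034 with limma voom. Nr2c2 and Nr6a1 were at 0.052 and 0.0063 with library totals. Leaving out libraries took Ppard from -0.59 to 0.12, Pparg from -0.11 to 0.29, Nr1d2 from -0.090 to 0.51, Nr1h3 from -0.72 to 0.84, Hnf4a from -0.47 to 0.86, Nr2c1 from -0.070 to 0.30 and Nr2c2 from -0.24 to 0.094. The cause was not tested.

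With the replicate number as a block, 8 members were higher and 3 lower. Among all tested genes 2651 were higher and 1364 lower (17.9% and 9.19%), and in the pathway lists 35 and 3. Nr1h3 was then at 0.038 and Hnf4a at -0.032. Same-numbered libraries deviated together with correlations of 0.139, 0.0773 and 0.0479, and each DKO library correlated best with its own number, a hint from the data and not the design, so the numbers were not used as pairs. Nr4a1, Pgr, Hnf4g and Nr0b2 had too few counts for the filter, and without it edgeR called none of these 4 (adjusted p = 0.532, 0.349, 0.631 and 0.95).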
